A study of Homo sapiens with 21 samples.

Results

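The 10 genes described here encode enzymes that make serine, asparagine, proline and cysteine or carry the one-carbon units derived from serine: PHGDH, PSAT1, PSPH, SHMT2, MTHFD2, ALDH1L2, ASNS, ALDH18A1, PYCR1 and CTH. They are 10 of the 26485 genes in the count table, and all 10 had enough counts to be tested. They were selected on the counts of these same RNA libraries, in which targets of the transcription factor ATF4 had been found lower on balance with the RNF8 hairpin, and the choice also names the peaks of the hybrid-binding S9.6 antibody. Differences between the hairpins are therefore given for these genes as a description, without p-values, and support nothing further.

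All libraries came from MDA-MB-436, an established human breast cancer cell line, transduced with a lentiviral hairpin that doxycycline induces. The hairpin was directed against RNF8, a ubiquitin ligase of the DNA damage response (shRNF8), or was a control hairpin (shScr), and shScr cells are also the ones labelled wild type. Polyadenylated RNA was sequenced in 3 shRNF8 and 3 shScr libraries, and DNA-RNA hybrids were pulled down from sonicated chromatin with S9.6 (DRIP-seq) in 4 shRNF8 and 2 shScr libraries, with as many RNase-treated partners that carry the same numbers. The labels name 1 hairpin for RNF8 and no rescue, so loss of RNF8 cannot be told apart from other effects of that hairpin or from differences between the transduced cells. Separate cultures are not stated for the replicates, and the p-values may therefore reflect technical spread alone.

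Serine is made from a glycolytic intermediate by PHGDH, PSAT1 and PSPH in turn. Serine hydroxymethyltransferases then pass a carbon of serine to folate, and the mitochondrial folate enzymes use it to supply formate for nucleotide synthesis and NADPH. ATF4 is a transcription factor whose translation increases when amino acids run short, and it is known to activate genes of amino acid synthesis and uptake through sites that it shares with C/EBP proteins. PHGDH is often highly expressed in breast tumours that lack the oestrogen receptor.

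The RNA libraries held 18121181 to 20006954 counts and 17212 to 17835 detected genes. RNF8 itself had 175, 195 and 142 counts in shRNF8 replicates 1, 2 and 3, against 561, 537 and 553 counts in shScr replicates 1, 2 and 3. The library labelled shScr replicate 1 lay apart from its group: on the first principal component, which held 45.2% of the variance, it scored -14.7, within the shRNF8 range of -23.4 to -10.7 and away from shScr replicates 2 and 3 at 31.2 and 30.4. Calls of the enzymes and of each pathway group are therefore given with and without it. Among the S9.6 libraries, the peaks of shRNF8 replicates 3 and 4 covered 83512 and 79030 kb of the genome, against 39519 and 34418 kb in shRNF8 replicates 1 and 2 and 47615 and 43368 kb in shScr replicates 1 and 2. The cells held the mesenchymal markers VIM (1040 to 1280 TPM, an abundance scaled by transcript length and library) and AXL (114 to 141 TPM), while the hormone receptors ESR1 and PGR stood at no more than 0.0347 and 0.0196 TPM. The keratin KRT8, listed as a luminal marker, went against the list at 557 to 921 TPM. Among the leukocyte markers, PTPRC and CD3E stood at no more than 0.0111 TPM, whereas CD68 stood at 149 to 204 TPM.

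Ranked per transcript length, PHGDH and MTHFD2 had the highest levels of the 10 enzymes in both groups. PHGDH stood at 456 ± 14.4 TPM and MTHFD2 at 425 ± 26.6 TPM in shRNF8, with ranges that overlapped, while in shScr PHGDH stood at 614 ± 31.2 TPM and MTHFD2 at 437 ± 23.3 TPM, with ranges that did not (SD, n = 3 each). In shRNF8 the order went on with SHMT2 (186 TPM), PSAT1 (145 TPM), ALDH18A1 (78.0 TPM), PYCR1 (77.8 TPM), PSPH (70.7 TPM) and ASNS (48.3 TPM). There PYCR1 overlapped in range with both ALDH18A1 and PSPH, which did not overlap each other, and SHMT2, PSAT1 and ASNS each lay apart from their neighbours in that order. In shScr PSAT1 (228 TPM) and SHMT2 (205 TPM) overlapped, as did each neighbouring pair among PYCR1 (90.4 TPM), ASNS (79.5 TPM), ALDH18A1 (78.2 TPM) and PSPH (77.3 TPM). CTH averaged 2.25 TPM in shRNF8 and 3.44 TPM in shScr, and ALDH1L2 averaged 0.176 TPM in shRNF8 and 0.236 TPM in shScr, so that both mRNAs were scarce.

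Promoters give the sequence context of the 3 genes called in RNA, PHGDH, PSAT1 and ASNS. Each stretch runs from 250 bases before to 50 bases after an annotated start, in RefSeq GRCh38.p14, and is written in the direction of transcription. RefSeq stretches were matched for 6 of the 10 genes (PHGDH, PSAT1, MTHFD2, ASNS, ALDH18A1 and CTH), and not for PSPH, SHMT2, PYCR1 or ALDH1L2. Capitals mark TGATGNAA, the core of the composite C/EBP-ATF response element, searched on both strands.
ASNS, chr7:97872359-97872658, minus strand: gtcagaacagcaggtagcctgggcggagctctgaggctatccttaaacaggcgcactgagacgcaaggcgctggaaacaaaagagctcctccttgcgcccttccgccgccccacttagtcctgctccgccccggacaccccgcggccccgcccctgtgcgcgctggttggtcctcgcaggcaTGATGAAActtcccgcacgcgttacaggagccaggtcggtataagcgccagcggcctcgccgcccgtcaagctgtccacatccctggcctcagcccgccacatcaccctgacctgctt
PSAT1, chr9:78296875-78297174, plus strand: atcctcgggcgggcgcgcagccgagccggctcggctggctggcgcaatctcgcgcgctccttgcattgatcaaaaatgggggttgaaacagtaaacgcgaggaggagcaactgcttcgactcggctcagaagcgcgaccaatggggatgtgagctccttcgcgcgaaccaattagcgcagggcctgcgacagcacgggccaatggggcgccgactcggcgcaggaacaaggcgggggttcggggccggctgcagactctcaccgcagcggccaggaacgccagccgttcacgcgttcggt
PHGDH, chr1:119711684-119711983, plus strand: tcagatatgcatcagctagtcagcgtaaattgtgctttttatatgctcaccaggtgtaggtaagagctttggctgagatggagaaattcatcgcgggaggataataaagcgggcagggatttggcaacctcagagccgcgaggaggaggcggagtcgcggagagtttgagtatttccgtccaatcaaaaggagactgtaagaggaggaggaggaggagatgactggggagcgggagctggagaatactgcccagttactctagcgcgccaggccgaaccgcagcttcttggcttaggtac
The element stood in 1 of the 6 genes' promoters, that of ASNS, on the coding strand at position -68 from the annotated start of the printed stretch (97872408). A second ASNS stretch, chr7:97872116-97872415, is not printed and held 0 matches, with 69.7% G and C. The ASNS gene start in the count table, 97872542, lies upstream of this match, which is thus inside the gene span used for the peaks. TGATGNAA occurs in 3.62% of all 35116 promoter stretches of the same length. The related sequence TTGCATCA, which on the other strand reads as a form of TGATGNAA, was in 0 of the 6 and in 0.866% of all. G and C made up 65.3% of the printed ASNS stretch, 66.0% of the PSAT1 stretch and 52.7% of the PHGDH stretch, against a median of 58.7% over all promoters. The PHGDH stretch held more G than C (skew 0.291), the PSAT1 stretch slightly more G (skew 0.0808) and the ASNS stretch more C (skew -0.184). A match is a description of the letters and no match says only that these letters are not in the window.

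Across the 10 enzymes 3 were lower in shRNF8 by edgeR's quasi-likelihood test (Benjamini-Hochberg adjusted over 14018 genes): PHGDH, PSAT1 and ASNS. The share of all genes called lower was 1.57%, 0.97% were called higher and 2.54% either way. Since this contrast chose the list, nothing is read from the count. The median log2 fold change of the 10 was -0.31 against -0.0048 over all genes tested, and 10 of 10 were below 0, as 50.8% of all genes were. In 6 genes (PHGDH, PSAT1, SHMT2, ASNS, PYCR1 and CTH) every shRNF8 library lay below every shScr library, an arrangement found in 12.8% of all genes. Without shScr replicate 1, PYCR1 and CTH were called as well, 5 in all, when 14.3% of 14259 genes were called lower and 12.8% higher. When any other single library was left out, edgeR called 0 of the 10, and over all genes it called only 29 to 78 lower and 17 to 54 higher. In those 5 fits 3 or 4 of the 10 had an unadjusted p under 0.05, and the share of all genes at that threshold was not taken. The log2 fold changes there ran from -0.44 to -0.41 for PHGDH, from -0.73 to -0.55 for PSAT1 and from -0.78 to -0.58 for ASNS. In bulk RNA, fewer cells with a transcript and less of it per cell cannot be told apart.

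**Figure D1:**
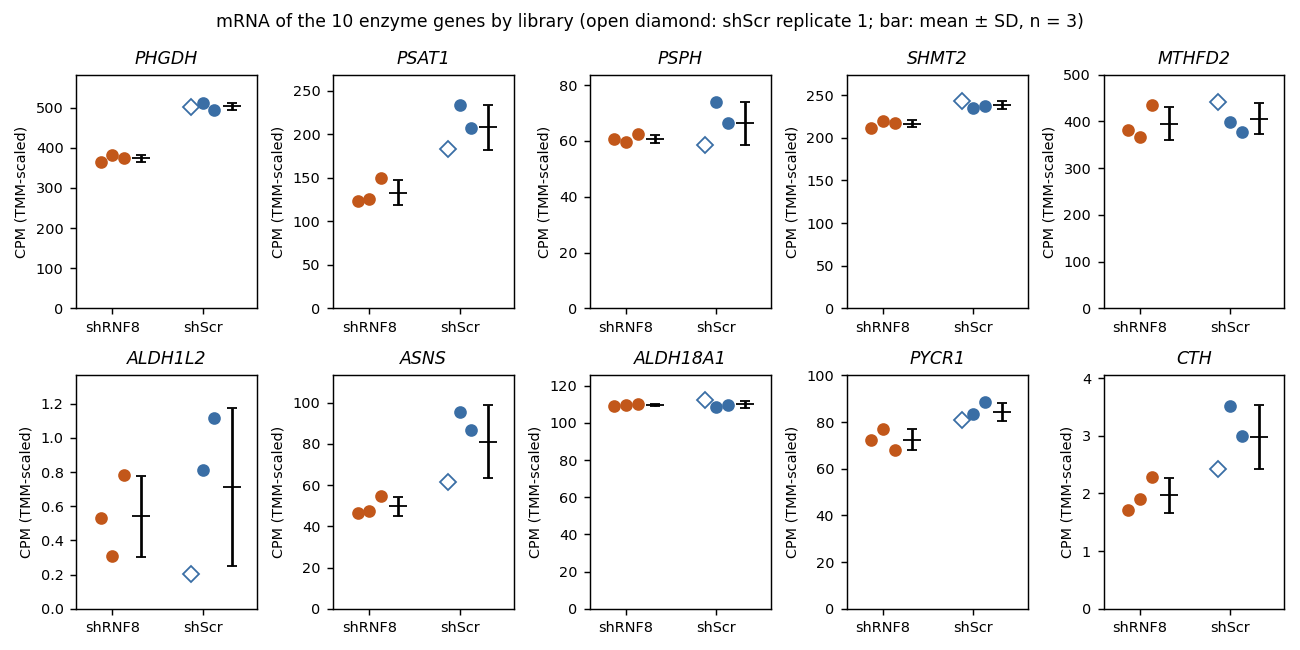
TMM-scaled CPM of each enzyme gene (y axis), with 1 point per library (shRNF8 left, shScr right; the open diamond is shScr replicate 1) and the mean ± SD of n = 3 as a bar. The PHGDH points lie between 365 and 381 CPM in shRNF8 and between 494 and 512 CPM in shScr, while the ALDH18A1 points lie between 108 and 112 CPM in both groups.

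PHGDH, which encodes the dehydrogenase that commits 3-phosphoglycerate to serine, had 365, 381 and 374 CPM (counts scaled by library size and TMM) in shRNF8 replicates 1 to 3, against 502, 512 and 494 CPM in shScr replicates 1 to 3. All 3 shRNF8 libraries lay below all shScr libraries, and shScr replicate 1 lay with its group. The log2 fold change was -0.43 (SE 0.08), or 1.35-fold lower, and without shScr replicate 1 it was -0.43 as well. PSAT1, the aminotransferase of the next step, had 124, 126 and 150 CPM in shRNF8, against 183, 234 and 207 CPM in shScr. The groups did not overlap, and shScr replicate 1 was the lowest of its group. The log2 fold change of PSAT1 was -0.64 (SE 0.11) with all libraries and -0.73 without that library. PSPH, the phosphatase that releases serine, had 60.6, 59.5 and 62.3 CPM in shRNF8, against 58.5, 73.9 and 66.6 CPM in shScr. Here shScr replicate 1 lay below every shRNF8 library, the groups overlapped, and the log2 difference was -0.13 (SE 0.10), which did not pass the test. PSPH was not called in any of the 14 alternative settings, where its log2 fold change ran from -0.21 to -0.04.

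The mitochondrial one-carbon enzymes differed less. SHMT2, which splits serine into glycine and a folate-bound carbon, had 212, 220 and 217 CPM in shRNF8, against 243, 235 and 237 CPM in shScr. The groups did not overlap, yet the log2 difference was only -0.14 (SE 0.08), and it was not called. MTHFD2, which oxidises the folate-bound carbon next, had 383, 368 and 435 CPM in shRNF8, against 443, 399 and 377 CPM in shScr. Its groups overlapped widely, with a log2 difference of -0.04 (SE 0.10) that became 0.03 without shScr replicate 1. ALDH1L2, which burns formyl folate to carbon dioxide with formation of NADPH, had 10, 6 and 14 counts in shRNF8 and 4, 15 and 22 counts in shScr. At this depth no difference in ALDH1L2 could be seen (log2 -0.40, SE 0.57), and the lowest value of all was that of shScr replicate 1.

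ASNS, which amidates aspartate to asparagine, showed the greatest log2 difference of the 10, -0.71 (SE 0.15), or 1.63-fold lower. It had 46.5, 47.6 and 55.0 CPM in shRNF8, against 61.5, 95.3 and 86.5 CPM in shScr. Every shRNF8 library lay below every shScr library, but shScr replicate 1 stood nearer to the shRNF8 libraries than to the rest of its group. Without it the log2 fold change was -0.87, and across the 6 fits that each leave out 1 library the ASNS value ran from -0.87 to -0.58. The ASNS call was lost with limma-voom and with scaling by library size alone.

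Of the proline enzymes, ALDH18A1, which makes the pyrroline precursor from glutamate, had 109, 109 and 110 CPM in shRNF8, against 112, 108 and 110 CPM in shScr. Its log2 difference was -0.0049 (SE 0.08), the smallest of the 10, and 0.01 without shScr replicate 1. PYCR1, the mitochondrial reductase that completes proline, had 72.4, 77.0 and 68.1 CPM in shRNF8, against 81.0, 83.3 and 88.5 CPM in shScr. The PYCR1 groups did not overlap, and the log2 difference of -0.22 (SE 0.09) was called only when shScr replicate 1 was left out, at -0.24. CTH, which releases cysteine from cystathionine, was scarce, with 32, 37 and 41 counts in shRNF8 and 47, 65 and 59 counts in shScr. Scaled, CTH had 1.71, 1.90 and 2.29 CPM in shRNF8, against 2.42, 3.52 and 2.99 CPM in shScr. The 3 shRNF8 values lay below the 3 shScr values, and the log2 difference of -0.60 (SE 0.26) was called only without shScr replicate 1, at -0.73.

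**Figure D2:**
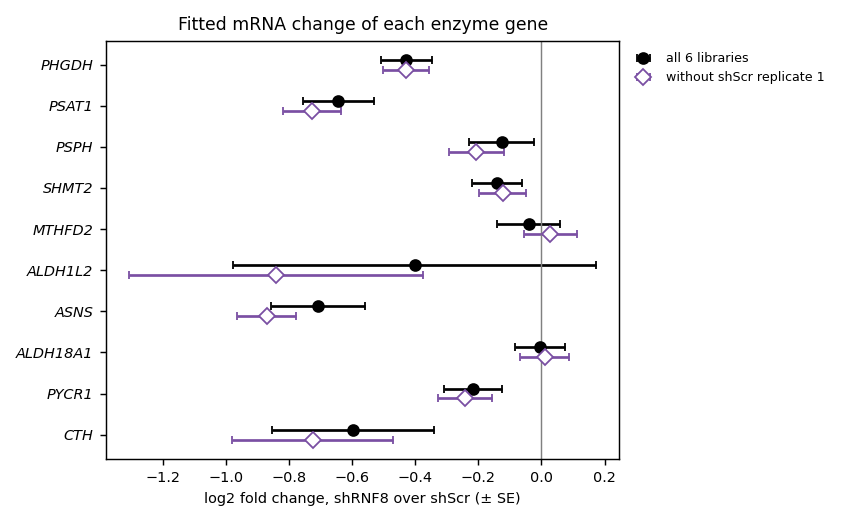
Fitted log2 fold change (shRNF8 over shScr, x axis) of each enzyme gene with its SE, with all 6 libraries (filled circles) and without shScr replicate 1 (open diamonds). ASNS lies farthest left among the well-counted genes, at -0.71 and -0.87, while MTHFD2 lies at -0.04 and 0.03 and ALDH18A1 at -0.0049 and 0.01.

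Leaving out shScr replicate 1 moved these genes unequally. On the log2 scale the value of that library minus the mean of shScr replicates 2 and 3 was -1.76 for the scarce ALDH1L2, whose fold change moved to -0.84 without it. The same difference was -0.56 for ASNS, -0.41 for CTH, -0.27 for PSAT1 and -0.26 for PSPH. For PHGDH and SHMT2 it lay within 0.05 of them, and for MTHFD2 it lay 0.19 above. The part of the library's position in the difference between the hairpins was not tested. The 5 other genes whose levels over the 6 libraries were most like the mean profile of the 10 enzymes were CCDC28A, HNRNPU-AS1, EPPK1, PIM2 and STX16, with Pearson's r from 0.994 to 0.998 on centred log2 CPM. The difference between the hairpins and the position of shScr replicate 1 enter each r, and ALDH1L2, the scarcest and most variable of the 10, weighs most in the mean profile.

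Other genes of the same pathways were read from 6 lists of 97 genes, of which 87 were tested. Called lower in shRNF8 were 3 of the 87 (DDIT4, SLC6A9 and SLC7A1), beside 1.57% of all genes, and edgeR called 0 higher, beside 0.97%. At an unadjusted p under 0.05 there were 8 higher and 24 lower. The share of all genes at that threshold was not taken, so nothing is read from the unadjusted counts. DESeq2 called 12 lower and 0 higher, and limma-voom called 1 lower and 0 higher. Without shScr replicate 1, edgeR called 23 lower and 13 higher, beside 14.3% and 12.8% of all genes. When any other single library was left out, edgeR called 0 of the 87, and only 29 to 78 of all genes were called lower and 17 to 54 higher. In those fits 15 to 20 of the 87 were lower and 4 to 6 higher at an unadjusted p under 0.05. The median log2 fold change of the 87 was -0.05, against -0.0048 over all genes. The lists were drawn up with earlier results of these libraries known, so they are no independent evidence of a direction.

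Among 14 tested amino acid transporters the median log2 fold change was -0.29, and 12 of 14 were negative, as 50.8% of all genes were. SLC6A9, a glycine transporter, had 7.09, 6.36 and 6.54 CPM in shRNF8, against 8.60, 13.6 and 15.3 CPM in shScr (log2 -0.91, SE 0.20, edgeR adjusted p = 0.0438). SLC7A1, a carrier of arginine and lysine, fell to 168, 159 and 140 CPM in shRNF8, against 203, 205 and 205 CPM in shScr (log2 -0.39, SE 0.09, edgeR adjusted p = 0.0486), and its shScr libraries were nearly equal. Both calls lie near the threshold: limma-voom called 0 of the 14 (8 lower at an unadjusted p under 0.05), edgeR called 1 with DESeq2 size factors or with library size only, and edgeR called 0 when any library other than shScr replicate 1 was left out, with 5 to 8 lower at an unadjusted p under 0.05. SLC7A5, which takes up large neutral amino acids, had 346 ± 20.5 CPM in shRNF8 and 461 ± 49.2 CPM in shScr, and SLC38A2, a glutamine carrier, had 181 ± 10.8 CPM in shRNF8 and 246 ± 44.9 CPM in shScr (SD, n = 3 each). Neither passed with all 6 libraries (edgeR adjusted p = 0.0548 for SLC7A5 and 0.0884 for SLC38A2), and without shScr replicate 1 edgeR called 8 transporters lower and 0 higher, the unadjusted count being 9 lower and 1 higher, beside 14.3% of all genes called lower and 12.8% higher.

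Of 20 tested genes that regulate ATF4 or answer to it, 1 was called. DDIT4, a stress-induced inhibitor of mTORC1, had 15.1, 13.9 and 10.9 CPM in shRNF8, against 22.1, 47.3 and 45.6 CPM in shScr (log2 -1.53, SE 0.27, edgeR adjusted p = 0.0250). Its groups did not overlap, and shScr replicate 1 lay between the shRNF8 libraries and the rest of shScr. CEBPB, a partner of ATF4 on DNA, TRIB3, a pseudokinase that restrains ATF4, and CHAC1, which degrades glutathione, had log2 differences of -0.39, -0.65 and -0.65 that did not pass (edgeR adjusted p of 0.0580, 0.0608 and 0.0652). Each of the 3 had every shRNF8 library below every shScr library, as 12.8% of all genes did. Without shScr replicate 1 edgeR called 7 of the 20 lower and 3 higher, beside 14.3% and 12.8% of all genes. The 7 were DDIT4, CEBPB, TRIB3, CHAC1, SESN2, ATF3 and EIF2AK3, and the 3 were ATF5 (log2 1.01), PPP1R15A (log2 0.43) and EIF2S1 (log2 0.31), the last 6 of these being named after their values were seen. ATF4 itself, named here because the list bears its name, had 292, 287 and 291 CPM in shRNF8, against 297, 292 and 303 CPM in shScr (log2 -0.04, SE 0.08), and it was not called. ATF4 protein was not measured in these libraries.

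In the 4 lists of neighbouring enzymes edgeR and limma-voom called 0 of 53 genes in either direction. At an unadjusted p under 0.05 edgeR had 8 higher and 8 lower, and the share of all genes at that threshold was not taken. DESeq2 called 2 genes of the glutamate, aspartate and asparagine list lower. Without shScr replicate 1 edgeR called 8 of the 53 lower and 10 higher, beside 14.3% and 12.8% of all genes. In that list ASS1, which joins citrulline to aspartate, had 28.9 ± 3.53 CPM in shRNF8 and 51.8 ± 15.2 CPM in shScr, and the alanine aminotransferase GPT2 had 59.3 ± 1.24 CPM in shRNF8 and 77.9 ± 8.39 CPM in shScr (SD, n = 3 each). The cytosolic aspartate aminotransferase GOT1 averaged 94.1 CPM in shRNF8 and 111 CPM in shScr, and ASRGL1, which cleaves asparagine, averaged 37.3 CPM in shRNF8 and 28.4 CPM in shScr. Around serine and folate, the mitochondrial folate carrier SLC25A32 averaged 94.4 CPM in shRNF8 and 72.8 CPM in shScr, and the folate hydrolase GGH averaged 145 CPM in shRNF8 and 120 CPM in shScr. The purine enzyme ATIC averaged 202 CPM in shRNF8 and 167 CPM in shScr, while methionine synthase, MTR, averaged 153 CPM in shRNF8 and 176 CPM in shScr.

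In the proline and ornithine list, PYCRL, a cytosolic relative of PYCR1, averaged 71.2 CPM in shRNF8 and 54.3 CPM in shScr. ODC1, the first enzyme of polyamine synthesis, averaged 911 CPM in shRNF8 and 714 CPM in shScr. P4HA1, which hydroxylates proline in collagen, averaged 52.4 CPM in shRNF8 and 73.9 CPM in shScr, and the arginase ARG2 averaged 23.5 CPM in shRNF8 and 26.2 CPM in shScr. In the methionine and glutathione list, MAT2A, which makes S-adenosylmethionine, averaged 418 CPM in shRNF8 and 330 CPM in shScr, and GCLC, of glutathione synthesis, averaged 29.4 CPM in shRNF8 and 22.4 CPM in shScr. The sulfurtransferase MPST averaged 58.6 CPM in shRNF8 and 71.9 CPM in shScr, and CBS, the enzyme before CTH in transsulfuration, averaged 1.71 CPM in shRNF8 and 2.97 CPM in shScr. None of the 16 genes named from these 4 lists passed edgeR's test with all 6 libraries. Without shScr replicate 1 edgeR called all of them but GOT1 and ARG2, among them ASS1 (log2 -1.06), P4HA1 (log2 -0.74), ODC1 (log2 0.69) and PYCRL (log2 0.53). The 16 were named for their small p in a fit that shares these libraries, so nothing is read from how many were called. Over all 53 genes of the 4 lists 8 were lower and 10 higher, beside 14.3% and 12.8% of all genes.

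DRIP-seq peaks were read at each gene from 1000 bp before its start to 5000 bp past its end, with positions in hg38 from the count table. Peaks were called per library, and the measure is the number of bases of that stretch under peaks. Of the 10 loci, 7 had an S9.6 peak in at least 1 library, where 80.3% of 13541 tested genes did. ASNS (chr7:97852117-97872542), CTH (chr1:70411218-70439851) and ALDH1L2 (chr12:105019784-105084563) had none in any of the 6 libraries, which says that no peak was called there at this depth and not that hybrids are absent. Peaks stood in all 6 libraries at PHGDH, SHMT2, MTHFD2 and PYCR1, as at 46.4% of all genes. Within 1000 bp of the gene start, 7 loci had a peak in at least 1 library (62.4% of all genes) and 3 of them, PHGDH, MTHFD2 and PYCR1, in all 6 (24.0% of all genes). Per library, 6, 4, 5 and 6 of the 10 loci had a peak in shRNF8 replicates 1 to 4, and 7 and 7 in shScr replicates 1 and 2, when 61.3%, 55.6%, 67.1% and 65.9% of all genes did in those shRNF8 libraries and 68.2% and 62.9% in those shScr libraries.

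The RNase-treated libraries had a peak at 0 of the 10 loci, and 3.38% of all genes had one in any of those 6 libraries. In the S9.6 libraries the cover averaged 16025 bp at PHGDH, 7487 bp at SHMT2, 4169 bp at MTHFD2 and 9826 bp at PYCR1, against 0 bp in the RNase-treated libraries, and all 6 S9.6 libraries held peaks at each of the 4. ALDH18A1 averaged 1455 bp in S9.6 libraries and 0 bp in RNase-treated ones, with peaks in 5 of 6 S9.6 libraries, PSPH 429 bp and 0 bp, with peaks in 4 of 6, and PSAT1 969.8 bp and 0 bp, with peaks in 2 of 6. As the choice of genes names the S9.6 peaks, these differences are given without a test.

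PSAT1 (chr9:78297075-78330093, plus strand, 9 exons) was the locus at which the hairpins were set apart by the presence of peaks. It had 0 bp under peaks in each of the 4 shRNF8 libraries, against 2338 and 3481 bp in shScr replicates 1 and 2. That arrangement, a peak in both shScr and in no shRNF8 library, was found at 1.6% of tested genes, and its reverse, a peak in all 4 shRNF8 and in no shScr library, at 0.583% of genes and at 0 of the 10 loci. With libraries matched in depth it held at PSAT1 (1737 and 3154 bp in shScr), as at 1.99% of genes, and with -log10 q of at least 5 shScr held 1356 and 3154 bp. The 11 shScr peaks formed 8 regions, of which 3 were in both shScr libraries: chr9:78305616-78306983, chr9:78307998-78308513 and chr9:78310776-78311887. These lie between 8541 and 14812 bp from the gene start, with summits in introns and, for 1 peak of shScr replicate 2, in exon 6. The promoter stretch of PSAT1 was reached only by a peak of shScr replicate 1, chr9:78297051-78297302, whose -log10 p of 3.90 was the lowest at the locus. The authors' fold over local background ran from 2.69 to 5.92 within the list of shScr replicate 1 and from 3.22 to 5.96 within that of replicate 2.

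PHGDH (chr1:119711796-119744226, plus strand, 12 exons) carried peaks from start to end. Peaks covered 9532, 6196, 23199 and 22473 bp in shRNF8 replicates 1 to 4, against 18678 and 16071 bp in shScr replicates 1 and 2. The shRNF8 libraries lay on both sides of shScr: replicates 1 and 2 below it, replicates 3 and 4, which cover more of the genome, above it. Of 11 regions 2 were found in all 6 libraries. The region at the start, chr1:119711542-119714478, overlaps the promoter stretch of PHGDH, and the other, chr1:119731082-119748823, runs 17742 bp from the later introns past the gene end. The nearest 1000 bp on either side of the start held 965, 420, 1255 and 1255 bp of cover in shRNF8 and 691 and 770 bp in shScr, and the groups overlapped there as well. The lower PHGDH mRNA in shRNF8 thus stood beside peak cover on which the shRNF8 libraries did not lie on one side of shScr.

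**Figure D3:**
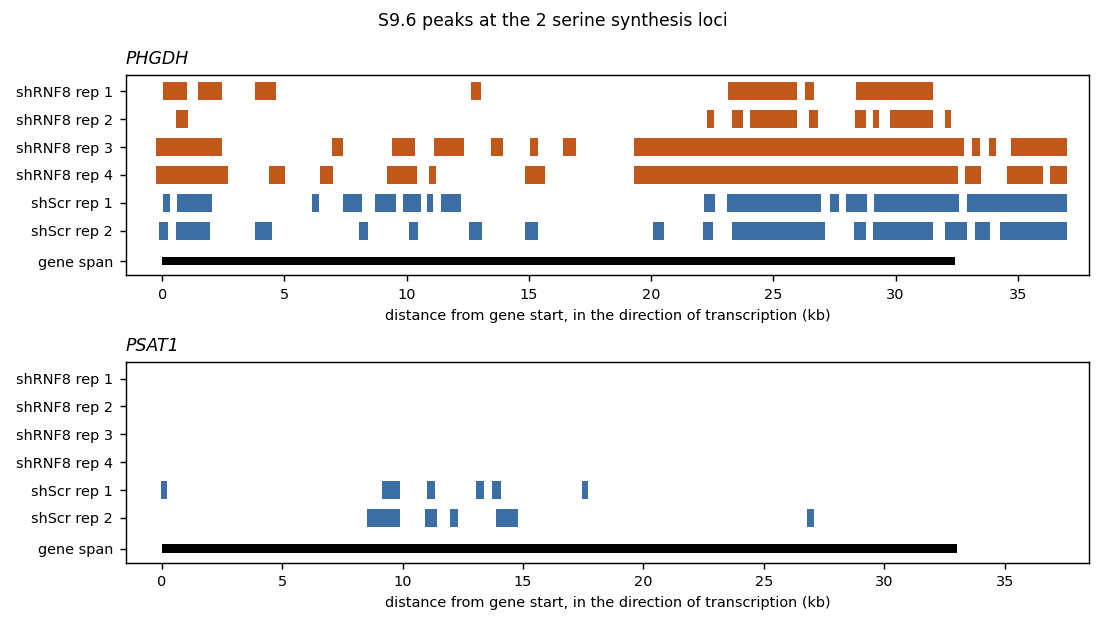
S9.6 peaks (boxes) in each library along the PHGDH and PSAT1 loci, by distance from the gene start in kb in the direction of transcription, with shRNF8 libraries above shScr libraries and the gene span as a black bar. PHGDH has peaks in all 6 libraries, whereas PSAT1 has 6 and 5 peaks in shScr replicates 1 and 2 and 0 in the 4 shRNF8 libraries.

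PSPH (chr7:56011051-56051575, minus strand, 8 exons) had little cover, with 299, 0, 0 and 333 bp in shRNF8 replicates 1 to 4, against 1176 and 766 bp in shScr replicates 1 and 2. Every shRNF8 library lay below both shScr libraries, and the peaks at the start, chr7:56051153-56052365, were found in 2 shRNF8 and 2 shScr libraries. This start region also reaches the divergent neighbour CCT6A, so its signal cannot be assigned to PSPH alone. Counting the gene span alone, the PSPH groups overlapped (173, 0, 0 and 333 bp in shRNF8, against 620 and 146 bp in shScr). With -log10 q of at least 5 only shScr replicate 1 kept cover at the PSPH locus (671 bp).

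MTHFD2 (chr2:74198563-74215297, plus strand, 9 exons) had 4091, 3464, 3130 and 4033 bp under peaks in shRNF8 replicates 1 to 4, against 5184 and 5113 bp in shScr replicates 1 and 2. All 4 shRNF8 libraries lay below both shScr libraries, at 16.2% of the locus on average in shRNF8 and 22.6% in shScr. A region over the start, chr2:74197017-74200377, was found in all 6 libraries. Within 1000 bp of the start it covered 2001, 1688, 407 and 919 bp in shRNF8, against 2001 and 2001 bp in shScr, so shRNF8 replicate 1 equalled shScr there and replicate 3 was lowest. The other region found in all 6, chr2:74217694-74220844, lies past the gene end inside SLC4A5, which is transcribed from the opposite strand. Counting the gene span alone, the MTHFD2 groups touched (1815, 1654, 816 and 1432 bp in shRNF8, against 2055 and 1815 bp in shScr), while its mRNA did not differ between the hairpins beyond the spread of the libraries.

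SHMT2 (chr12:57229573-57234935, plus strand, 14 exons) and PYCR1 (chr17:81932386-81937328, minus strand, 8 exons) are short genes under dense peaks, which covered 67.8% of the SHMT2 locus in shRNF8 and 62.1% in shScr, and 88.3% of the PYCR1 locus in shRNF8 and 92.7% in shScr. The median gene had 2.76%, and the PYCR1 share was above that of 97.6% of tested genes. SHMT2 had 6244, 6016, 9925 and 8619 bp in shRNF8 replicates 1 to 4, against 7744 and 6374 bp in shScr replicates 1 and 2. PYCR1 had 7396, 9381, 10943 and 10943 bp in shRNF8, against 10087 and 10205 bp in shScr. Its locus is 10943 bp long, so shRNF8 replicates 3 and 4 were covered whole and could not show more. At both genes shRNF8 replicates 1 and 2 lay below shScr and replicates 3 and 4 above it, so the groups overlapped. The main SHMT2 region, chr12:57230633-57236759, began after the start and ran past the end, where the antisense neighbour NDUFA4L2 overlaps the gene. The single PYCR1 region, chr17:81919109-81942954, spans 23846 bp and also holds MAFG and MAFG-AS1, so its signal cannot be assigned to PYCR1 alone.

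**Figure D4:**
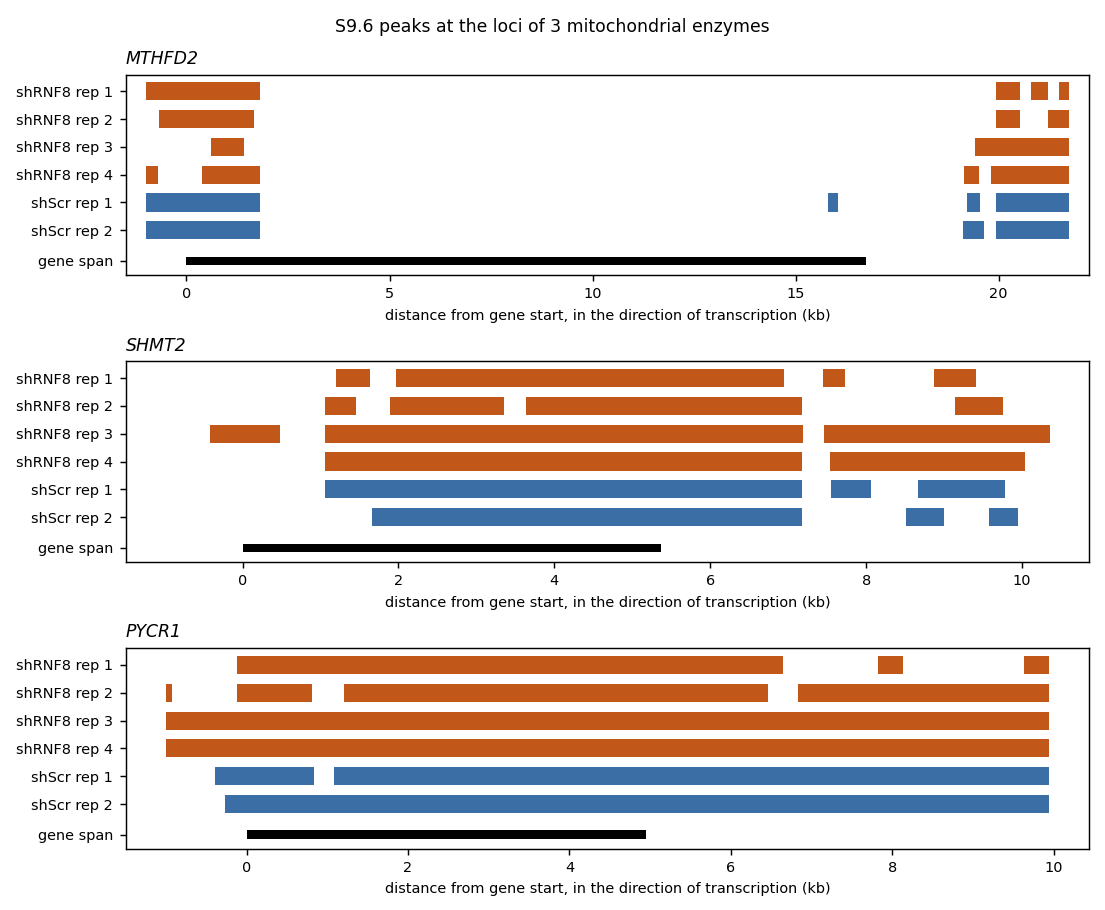
S9.6 peaks (boxes) in each library along the MTHFD2, SHMT2 and PYCR1 loci, by distance from the gene start in kb in the direction of transcription, with shRNF8 libraries above shScr libraries and the gene span as a black bar. MTHFD2 has a block at its start and one past its end. PYCR1 is covered through most or all of the gene and beyond it in all 6 libraries. SHMT2 is largely covered from after its start to past its end, with a peak over the start in shRNF8 replicate 3 only.

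ALDH18A1 (chr10:95605929-95656810, minus strand, 18 exons) had 430, 0, 1146 and 2828 bp in shRNF8 replicates 1 to 4, against 2508 and 1818 bp in shScr replicates 1 and 2. The shRNF8 libraries spread from below both shScr libraries to above them. Its peaks clustered at the end of the gene, with a region at chr10:95604794-95606131 in 3 shRNF8 and 2 shScr libraries, and the start region chr10:95656069-95657030 was found in 1 shRNF8 and 2 shScr libraries.

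Over the 10 loci, cover was lower in every shRNF8 library than in both shScr libraries at 3 (PSAT1, PSPH and MTHFD2), an arrangement found at 6.71% of tested genes, and it was higher at 0, where 6.35% of genes were. Matched in depth the counts were again 3 lower and 0 higher, beside 7.78% and 6.33% of genes. That matching drops weak peaks and leaves the others at full width, so it matches cover only in part. At SHMT2, PYCR1 and ALDH18A1 it changed the cover of no library. With 4 shRNF8 and 2 shScr libraries there are 15 splits, so a two-sided exact permutation test cannot give a p under 0.0667 and no locus could pass. The count depended on the shRNF8 libraries used. With replicates 1 and 2 alone, 7 loci were lower and 0 higher, beside 30.1% and 7.7% of all genes. With replicates 3 and 4 alone, 3 were lower and 3 higher, beside 8.8% and 48.0% of all genes. At PSAT1, PSPH and MTHFD2 both pairs of shRNF8 libraries lay below shScr, whereas at PHGDH, SHMT2 and PYCR1 the pairs lay on opposite sides of shScr, as the cover of the whole genome did. Of the 3 genes called lower in mRNA, PSAT1 was also lower in peak cover in every shRNF8 library, PHGDH was not, and ASNS had no peak.

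**Figure D5:**
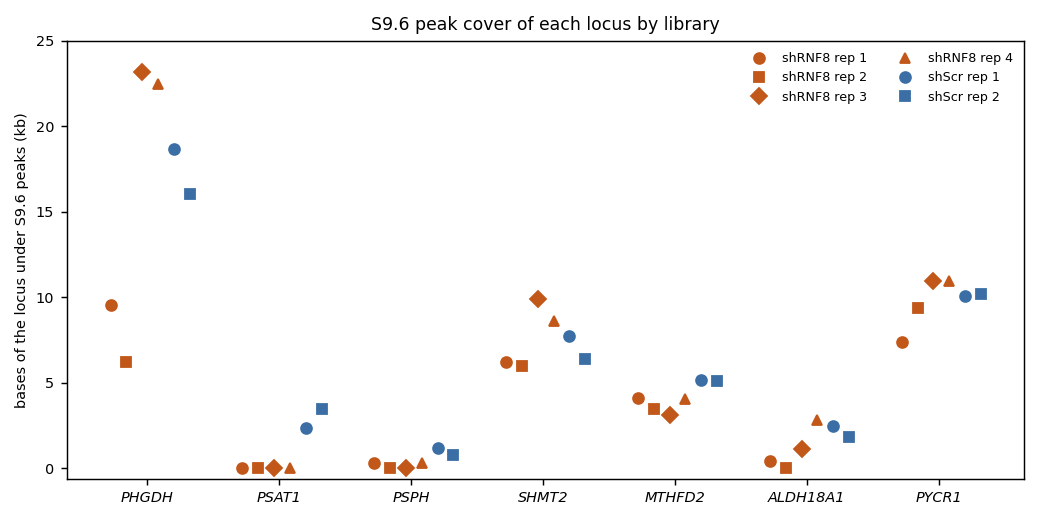
Bases of each locus under S9.6 peaks (y axis, kb) in each library, for the 7 loci with a peak, with shRNF8 libraries left of shScr libraries and 1 marker per replicate. PSAT1 has 0 bp in all 4 shRNF8 libraries, and at PHGDH shRNF8 replicates 1 and 2 (9532 and 6196 bp) lie below and replicates 3 and 4 (23199 and 22473 bp) above shScr (18678 and 16071 bp).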

How the data were processed

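The authors deposited raw fragment counts per gene, made with featureCounts against hg38 per the file headers without a strand option, so reads of overlapping or antisense partners may be mixed. Each DRIP-seq library has its own deposited peak list, which gives a peak's fold over local background (a linear ratio) and its p-value and q-value as -log10. The submitters' processing notes name Trim Galore 0.6.6, STAR 2.7.9a, Bowtie2 2.2.6, SAMtools 1.14, Picard 2.10.9, Subread 2.0.1, MACS2 2.2.7.1 and deepTools 3.5.1. Input libraries were not analysed here.

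The whole count table was fitted with edgeR 4.0.16 under R 4.3.3 (filterByExpr, TMM, robust glmQLFit and glmQLFTest), with an adjusted p under 0.05 called, and with DESeq2 1.42.0 and limma 3.58.1 as alternatives. The fit was tested on simulated data. TPM used the lengths in the count table. Peaks were read with pandas 2.3.3, NumPy 2.4.6 and SciPy 1.17.1 (Python 3.11.15), and matplotlib 3.10.9 drew the figures. Peaks were assigned by summit to the start (within 1000 bp), end, exon or intron. Total DRIP depth is unknown. Depth matching used the pileup that fold and p imply, with a background of 0.698 in each S9.6 library and a -log10 p of at least 4. It dropped peaks that fell short and did not change the width of the others.

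The genes and the pathway lists were chosen with earlier results of these data known. Named are all 10 enzymes, RNF8, up to 4 genes of each list with the smallest edgeR p and the 5 genes most like the enzymes in profile; ATF4, the cell markers and 6 regulators called without shScr replicate 1 are further names. The splits into shRNF8 replicates 1 and 2 and replicates 3 and 4 were chosen after seeing the data. Within lists of those shRNF8 replicates 3 and 4, peak names carry the stems of replicates 1 and 2. Leaving out shScr replicate 1 was among the alternatives because the list of enzymes asks for it.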

Additional observations from a re-analysis of the deposited data

How the results depend on the processing

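Of the 10 enzymes, PHGDH and PSAT1 were called lower in shRNF8 in all 8 settings that kept all 6 RNA libraries, and ASNS in 6 of them. ASNS was lost with library size only and with limma-voom. These settings share the same counts and the contrast chose the genes, so the repeated calls are no further evidence. Leaving out 1 RNA library moved the count of called enzymes between 0 and 5, other pathway genes called lower between 0 and 23 and higher between 0 and 13, all genes lower between 29 and 2042 and all genes higher between 17 and 1823; the high ends came without shScr replicate 1. All genes called lower or higher numbered 381 and 267 without a filter on low counts and 535 and 324 with DESeq2, and other pathway genes called lower numbered 10 and 12 in those settings and 1 with limma-voom.

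Replicate numbers gave no sign of pairing among the RNA libraries. Same-numbered shRNF8 and shScr libraries had correlations of -0.05, 0.11 and -0.23 in their deviations from the group means, and differently numbered ones -0.19 to 0.20. With 3 libraries per group these values cannot exclude a pairing. With the replicate block, 205 genes were higher and 296 lower, and 3 enzymes were called. The planned test of S9.6 against RNase cover is not given, since the choice of genes names the S9.6 peaks. The RNase-treated libraries had 0 bp under peaks at each of the 10 loci, so its outcome followed from the S9.6 peaks alone.

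With the gene span only, S9.6 cover was lower in every shRNF8 library at 1 locus, PSAT1 (0 bp, against 2314 and 3481 bp in shScr). Within 1000 bp of the start only, it was lower at 1 locus, PSPH (at most 333 bp, against 671 and 766 bp in shScr). The share of all genes was not taken for these windows, so nothing is read from either count. With shRNF8 replicates 1 and 2 only, 7 loci were lower, beside 30.1% of all genes. With replicates 3 and 4 only, 3 loci were higher, beside 48.0% of all genes. The sign of the cover difference turned at PHGDH (380.2 bp with the gene span, 243.2 bp at the start, -4641 to 1027 bp with 1 library left out), PYCR1 (23.5 bp, 287.2 bp, -906 to 276.3 bp) and SHMT2 (-99.33 to 1327 bp with 1 library left out). The cause was not tested. Peak lists hold peaks over the caller's threshold only, so cover says nothing of weaker signal, and the counts of CTH and ALDH1L2 are too low to show small differences.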
